A study of Mus musculus with 12 samples.

Results

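The homeostatic microglia genes are 10 genes that mark microglia, the resident macrophages of the retina and brain, in their resting state. They are P2ry12, P2ry13, Tmem119, Siglech, Sall1, Gpr34, Olfml3, Cx3cr1, Csf1r and Aif1, and they were found by gene name among the 54367 genes of the retina expression tables, where all 10 were present. The study measured polyA RNA of whole retina by sequencing after laser burns, in 12 libraries that form 4 groups of 3. All mice were C57BL/6 wildtype animals of 8 to 12 weeks. In the laser groups the right eye received burns from a 532 nm laser, with a spot of 75 µm and a duration of 0.1 s at each of the clock-face positions treated, and the retina was taken on day 3 or day 7. In the control groups the untreated left eye of a lasered mouse gave the retina on the same day, so the control eyes are not eyes of untreated animals. The labels do not say whether a library is 1 retina or a pool, nor that replicates are separate animals, so p-values here measure the spread between these libraries only.

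Microglia depend on signals through the receptor Csf1r for survival, and in a healthy retina their processes sample the plexiform layers. After injury they withdraw processes, gather at the damage and lower many of the genes that mark the resting state, while macrophages derived from blood monocytes can enter the tissue. Cx3cr1, Csf1r and Aif1 are also expressed by monocytes and macrophages, whereas P2ry12, Tmem119, Siglech and Sall1 are regarded as more restricted to microglia. In whole-retina RNA, a change in the number of cells and a change in RNA per cell cannot be told apart.

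The sequences shown are the 250 bases before the transcript start of a pair of neighbouring purine receptor genes described side by side below, P2ry12 and P2ry13, and of Aif1, the gene with the largest fitted difference. They are RefSeq promoter windows on GRCm38.p6, read 5′ to 3′ on the minus strand of chromosome 3 (P2ry12 and P2ry13) and chromosome 17 (Aif1). Capitals mark GAGGAA or its reverse complement TTCCTC, the short core of the site bound by PU.1, the lineage factor of myeloid cells.
P2ry12: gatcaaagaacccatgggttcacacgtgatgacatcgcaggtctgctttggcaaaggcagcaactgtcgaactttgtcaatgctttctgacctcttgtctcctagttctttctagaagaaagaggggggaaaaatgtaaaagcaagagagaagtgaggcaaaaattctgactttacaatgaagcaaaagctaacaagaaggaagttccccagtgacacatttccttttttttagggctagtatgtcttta
P2ry13: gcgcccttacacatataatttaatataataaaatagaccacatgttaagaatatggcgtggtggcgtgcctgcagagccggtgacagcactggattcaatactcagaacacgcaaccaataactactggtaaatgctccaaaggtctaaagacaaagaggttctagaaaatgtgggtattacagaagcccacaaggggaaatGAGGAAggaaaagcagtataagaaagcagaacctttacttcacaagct
Aif1: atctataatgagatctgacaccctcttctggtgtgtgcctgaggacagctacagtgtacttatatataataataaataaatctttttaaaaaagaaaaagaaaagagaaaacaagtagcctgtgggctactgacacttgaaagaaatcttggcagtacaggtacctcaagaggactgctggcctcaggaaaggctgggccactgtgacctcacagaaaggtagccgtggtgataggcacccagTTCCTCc
Windows were found for 7 of the 10 genes, and no window was used for Tmem119, Gpr34 or Csf1r. The short core occurred in 2 of the 7, P2ry13 and Aif1, and in 23.3% of all 32851 mouse windows of the same length. The longer form GAGGAAGT (ACTTCCTC on the other strand), which contains the short core, occurred in 0 of the 7 and in 2.44% of all windows. These matches describe letters in these windows only.

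Expression is given as the authors' deposited signal, which is scaled for exon length and library depth and which they named TPM. Libraries of day 3 held 9282002 to 12515814 reads, as recovered from these values, and those of day 7 held 23886188 to 31092892. The values of the 10 genes rested on 2 to 420 reads per library on day 3 and on 0 to 2346 on day 7, and counting error alone is therefore large for the least abundant. On day 3, laser replicate 1 stood apart. Its summed monocyte markers reached 775, against 35.3 and 72.8 in laser replicates 2 and 3 and 5.56 to 8.00 in control retinas. Its summed neutrophil markers reached 1130, against 7.97 and 65.1 in the other laser retinas and 4.82 to 7.24 in control retinas. Its summed border-associated macrophage markers reached 412, against 12.6 and 19.6 in the other laser retinas and 11.7 to 15.5 in control retinas. Pf4 alone gave 376 of this 412, and Lyz2 gave 661 of the monocyte sum of 775. Lyve1, also in the border-associated list, had 9.56, 8.40 and 10.9 in laser and 10.8, 12.5 and 13.3 in control retinas. Rod photoreceptor markers summed to 8108 to 20193 in laser and 18017 to 22783 in control retinas of day 3, with the lowest sum in laser replicate 1, and to 37508 to 44456 in laser and 47420 to 50441 in control retinas of day 7, and 0 of 6 were called on either day.

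On day 3, none of the 10 genes passed the test in either direction, and 6 of them had every laser library above every control library. These were Aif1, Csf1r, Olfml3, P2ry13, Cx3cr1 and Tmem119. P2ry12 and Siglech had the only negative fitted differences. Tests used limma on log2(signal + 1) over all genes with a mean signal of at least 1, and a gene was called at an adjusted p under 0.05. Of 16786 genes tested, 0.143% were called higher (24 genes) and 0.00596% lower (1 gene). Sall1 and Tmem119 lay under the filter. Cx3cr1 (control mean 0.967, laser mean 2.02) reached it only through its laser libraries. Of the 8 genes that passed it, 5 had groups that did not overlap with laser higher, against 27.7% of all genes tested, and none had groups apart with laser lower, against 3.82%. An unadjusted p under 0.05 was reached by 5 of the 8, all higher, against 20.7% of all genes, and 6 of the 8 had a positive difference, against 68.2%. Their median difference was 0.67 on the log2 scale, beside 0.16 over all genes tested. Genes with a GC content of 60% or more stood at 0.33, 0.23 and -0.0071 from their means over the day (log2, median) in laser libraries. In control libraries they stood at -0.26, -0.14 and -0.10. With GC trends removed, Csf1r had a difference of 0.91, Olfml3 1.01, Aif1 1.71, P2ry13 0.58 and Cx3cr1 0.42 (adjusted p 0.170 to 0.244). The median over all genes was then -0.023. The share of the signal from genes of the mitochondrial genome was 15.7%, 17.3% and 19.0% in laser retinas and 22.7%, 22.6% and 20.9% in control retinas of day 3, lower in every laser library. The part of that difference in these values was not tested.

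**Figure D1:**
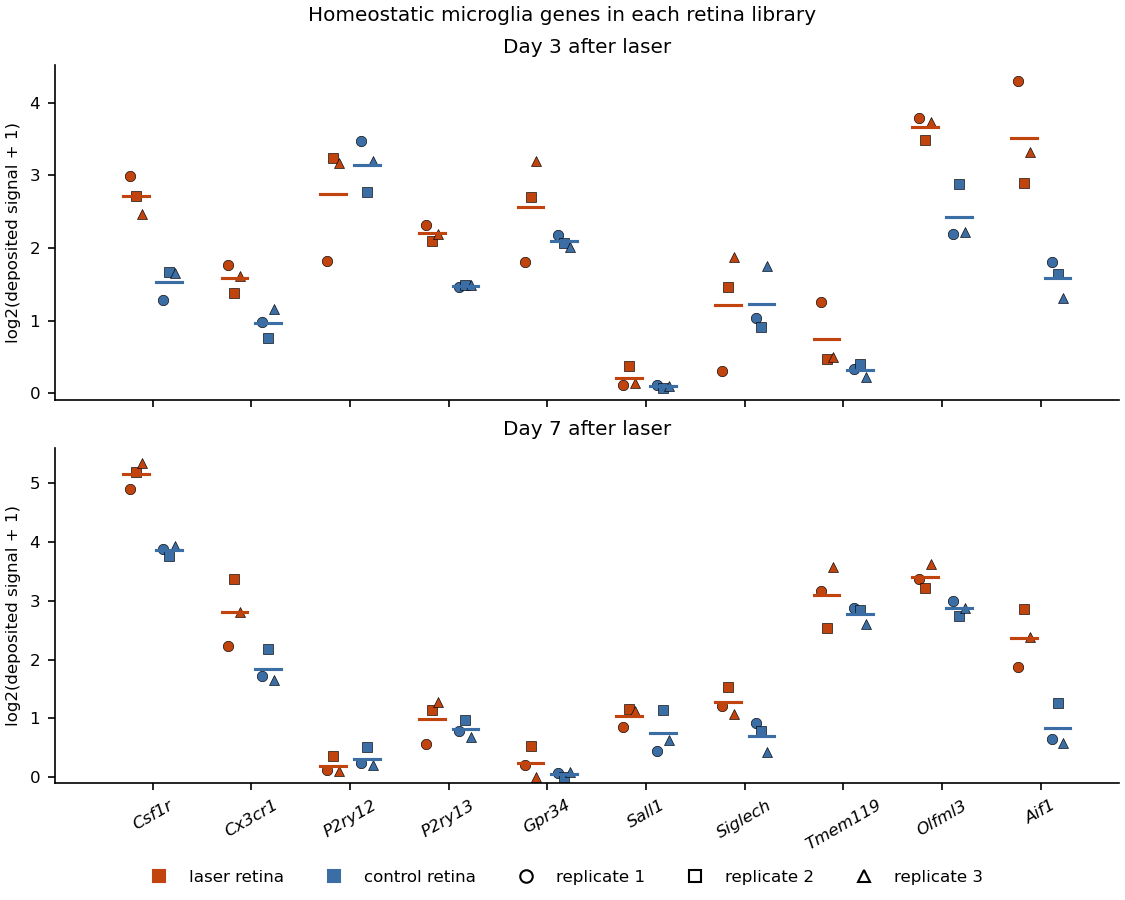
Signal of each of the 10 genes, as log2(deposited signal + 1), in every laser (red, left) and control (blue, right) library of day 3 (upper panel) and day 7 (lower panel), with horizontal lines at group means (n = 3) and a symbol for each replicate number. Csf1r, Cx3cr1, Olfml3 and Aif1 lie higher in every laser library on both days, while P2ry12 is low in laser replicate 1 of day 3 and near 0 in all libraries of day 7.

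Of the growth factor and chemokine receptors, Csf1r (chr18:61105572-61132149, mm10), the receptor for CSF1 and IL-34, had signals of 6.96, 5.54 and 4.52 in laser retinas and 1.43, 2.19 and 2.15 in control retinas of day 3. The lowest laser value was more than the highest control value. The difference was 1.18 on the log2(signal + 1) scale (SE 0.20, adjusted p = 0.0883). Cx3cr1 (chr9:119901616-120069879), the receptor for the neuronal chemokine fractalkine, had 2.40, 1.61 and 2.06 in laser and 0.976, 0.696 and 1.23 in control retinas. The groups were again apart, and the difference was 0.62 (SE 0.21, adjusted p = 0.145). Exons of Csf1r share 873 of 5774 bases, or 15.1%, with Hmgxb3 on the opposite strand, and exons of Cx3cr1 share 1.73% with Gm33858. The sources used here do not say whether counting used strand, so reads in these stretches may belong to either gene.

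None of the purine and lipid receptors passed the test on day 3. Their differences were not tested against each other, apart from a ratio of P2ry12 to P2ry13 chosen after their values were seen. P2ry12 (chr3:59216272-59262871), the ADP receptor by which microglial processes sense injury, had signals of 2.54, 8.48 and 8.04 in laser retinas and 10.1, 5.81 and 8.18 in control retinas. One laser library lay under all controls and the others lay among them. The difference was -0.40 (SE 0.40, adjusted p = 0.585), with a 95% interval of -1.33 to 0.54, and without laser replicate 1 it was 0.065. P2ry13 (chr3:59207892-59210882), a second ADP receptor that lies beside P2ry12, had 3.97, 3.27 and 3.57 in laser and 1.75, 1.82 and 1.80 in control retinas. These groups did not overlap, and the values within each lay close together, with means of 3.61 ± 0.35 in laser and 1.79 ± 0.035 in control retinas (SD, n = 3 each). The difference was 0.72 (SE 0.15, adjusted p = 0.0915). Gpr34 (chrX:13632089-13640858), a receptor for lysophosphatidylserine, had 2.50, 5.50 and 8.19 in laser and 3.54, 3.20 and 3.05 in control retinas. Laser replicate 1 lay under the controls while the other laser libraries lay above them, so the groups overlapped. The difference was 0.48 (SE 0.33, adjusted p = 0.420) and was 0.86 without laser replicate 1 (adjusted p = 0.0939), which was the lowest over the alternatives, whose adjusted p reached 0.767.

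Among the nuclear and surface proteins, Siglech (chr7:55768178-55778925), a member of the Siglec family, had signals of 0.237, 1.76 and 2.67 in laser retinas and 1.05, 0.872 and 2.35 in control retinas of day 3. The groups overlapped widely, the lowest value of all being laser replicate 1 with 4 reads. The difference was -0.012 (SE 0.44, adjusted p = 0.990), and it was 0.44 without that library, so no direction can be given. Tmem119 (chr5:113793729-113800516), a membrane protein used to tell microglia from other macrophages, had 1.39, 0.389 and 0.415 in laser and 0.264, 0.321 and 0.164 in control retinas. The groups did not overlap, but the values rested on 5 to 16 reads in laser and 2 to 5 in control libraries. Sall1 (chr8:89027235-89044162), a transcription factor that maintains microglial identity, had 0.0775, 0.293 and 0.106 in laser and 0.0864, 0.0541 and 0.0750 in control retinas. At 2 to 10 reads per library a difference in Sall1 was not detectable at this depth.

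Olfml3 (chr3:103722222-103738001), a secreted olfactomedin-like protein, and Aif1 (chr17:35170991-35176068), which encodes the actin-bundling protein IBA1 used to stain microglia, had their laser and control groups apart on day 3. Olfml3 had signals of 12.9, 10.2 and 12.3 in laser retinas and 3.57, 6.35 and 3.68 in control retinas, with no overlap. Its difference was 1.24 (SE 0.22, adjusted p = 0.0883). Aif1 had 18.8, 6.47 and 9.04 in laser and 2.49, 2.13 and 1.48 in control retinas. All 3 laser values exceeded the controls, and laser replicate 1 was far above the other laser retinas. The difference was 1.92 (SE 0.35, adjusted p = 0.0883). Without laser replicate 1, the library rich in monocyte and neutrophil markers, it was 1.53, and Aif1 passed the test (adjusted p = 0.0250, in a range of 0.0174 to 0.301 over the alternatives), while the number of genes called was 294 in place of 25. The 6 genes with separate groups kept laser above control without that library, since every laser value lay above every control value.

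**Figure D2:**
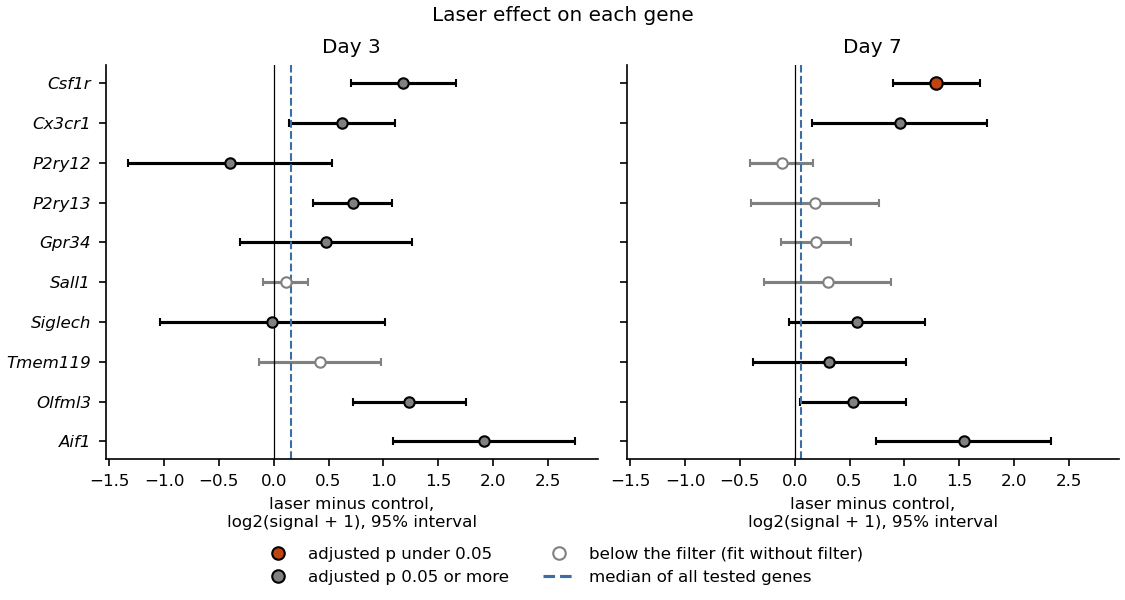
Difference between laser and control retinas for each of the 10 genes, as log2(signal + 1) with 95% intervals (n = 3 per group), on day 3 (left) and day 7 (right). Open symbols mark genes under the filter, fitted without it, and dashed lines mark the medians of all genes tested, 0.16 on day 3 and 0.055 on day 7. The filled red point is Csf1r on day 7, the only one of these genes that passed the test, and P2ry12 lies left of 0 in both panels.

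On day 7, Csf1r rose and was the only one of the 10 genes to pass the test. Csf1r, Cx3cr1, Siglech, Olfml3 and Aif1 had every laser library above every control library, and no gene had every laser library below. P2ry12 and Gpr34 were close to 0 in both groups. Of 15592 genes tested, 0.237% were called higher (37 genes) and 0.00641% lower (1 gene). P2ry12, P2ry13, Gpr34 and Sall1 lay under the filter, 1 of the 6 tested genes was called, and 5 of these 6 had groups that did not overlap with laser higher, against 6.78% of all genes tested, and none with laser lower, against 2.11%. An unadjusted p under 0.05 was reached by 4 of the 6, all higher, against 3.14% of all genes, and all 6 had a positive difference, against 61.5%. The median difference of the 6 was 0.76, beside 0.055 over all genes tested. Siglech (control mean 0.647, laser mean 1.44) and Aif1 (0.817 and 4.37) reached the filter only through their laser libraries. P2ry13 and Sall1, whose groups overlapped, lay just under it, at means of 0.900 and 0.891. These shares therefore describe the 6 genes only and are no support for a rise of the 10.

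Csf1r had signals of 29.1, 35.8 and 39.4 in laser retinas and 13.7, 12.6 and 14.2 in control retinas of day 7. These were the highest levels of any of the 10 genes, and the lowest laser value was far above the highest control value. The means were 34.8 ± 5.3 in laser and 13.5 ± 0.86 in control retinas (SD, n = 3 each), a ratio of 2.57. The difference was 1.29 (SE 0.17, 95% interval 0.89 to 1.69, adjusted p = 0.0444). The estimate lay between 1.05 and 1.41 under 18 alternatives, but the call was lost under 10 of them, among them leaving out any 1 of the 6 libraries, with adjusted p between 0.0625 and 0.366. Cx3cr1 had 3.67, 9.38 and 6.00 in laser and 2.28, 3.52 and 2.14 in control retinas. Its groups did not overlap, and its difference was 0.96 (SE 0.34, unadjusted p = 0.0248, adjusted p = 0.9998).

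The remaining surface, secreted and cytoskeletal genes did not pass the test on day 7. Siglech had signals of 1.31, 1.91 and 1.11 in laser retinas and 0.886, 0.715 and 0.340 in control retinas, a difference of 0.57 (SE 0.27). Olfml3 had 9.41, 8.25 and 11.4 in laser and 7.02, 5.66 and 6.35 in control retinas, a difference of 0.53 (SE 0.21). In both genes all laser values exceeded all control values. Tmem119 had 7.96, 4.79 and 10.96 in laser and 6.39, 6.22 and 5.06 in control retinas. Its groups overlapped, since laser replicate 2 lay under all controls, and its difference was 0.31 (SE 0.30). In that library genes with a GC content of 60% or more stood at -0.49 from their means over the day (log2, median). The other libraries of day 7 had -0.025 to 0.22. Tmem119 has a GC content of 59.1%, and the part of this in its values was not tested. Aif1 had 2.66, 6.24 and 4.21 in laser and 0.559, 1.40 and 0.494 in control retinas. The laser values of Aif1 were all above the controls, by 1.54 (SE 0.34, adjusted p = 0.346).

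The genes under the filter on day 7 gave little to compare. P2ry12 had signals of 0.0838, 0.281 and 0.0762 in laser retinas and 0.177, 0.421 and 0.147 in control retinas, from 2 to 6 and 3 to 11 reads. Its groups overlapped. Gpr34 had 0.160, 0.441 and 0 in laser and 0.0512, 0 and 0.0611 in control retinas. These are 0 to 8 reads in laser and 0 to 1 in control libraries, where 3 reads correspond to a signal of 0.140 to 0.182, so no fold is given. P2ry13 had 0.483, 1.21 and 1.42 in laser and 0.720, 0.969 and 0.598 in control retinas, and the groups overlapped. Sall1 had 0.801, 1.24 and 1.18 in laser and 0.362, 1.21 and 0.555 in control retinas, with 2 of the controls under every laser value and 1 among them. Laser replicate 2 and control replicate 2, which had the most P2ry12 in their groups, also had the most signal in AT-rich genes. Genes with a GC content under 40% stood 0.87 and 0.27 above their means over the day (log2, median) in those libraries, against -0.40 to -0.15 in the other libraries of day 7. The part of this in the values of P2ry12 and Gpr34 was not tested.

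Whether the laser effect differed between the days was tested as an interaction over all 12 libraries. Of 17611 genes tested, 0% were called, while 9.39% (1654 genes) had an unadjusted p under 0.05, and none of the 9 of these 10 genes that could be tested was called. The smallest unadjusted p was that of Olfml3, whose difference was 0.70 smaller on day 7 than on day 3 (day 7 minus day 3 -0.70, SE 0.30, unadjusted p = 0.0357, adjusted p = 0.498). For Csf1r the change between days was 0.11 (SE 0.27, 95% interval -0.48 to 0.69). Csf1r passed the test on day 7 and not on day 3, and a difference between its effects on those days was not shown.

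Set against Csf1r in the same library, a ratio that library scaling does not affect, P2ry12 and P2ry13 were lower in every laser library on both days. The ratio of P2ry12 to Csf1r was 0.365 to 1.78 in laser retinas and 2.65 to 7.05 in control retinas of day 3, a log2 difference of -2.05, or -1.33 without laser replicate 1. On day 7 it was 0.00193 to 0.00786 in laser and 0.0103 to 0.0334 in control retinas, a log2 difference of -2.22 that rests on few reads of P2ry12. The groups did not overlap on either day. For P2ry13 the ratio was 0.571 to 0.792 in laser and 0.830 to 1.23 in control retinas of day 3 (log2 difference -0.56), and 0.0166 to 0.0359 in laser and 0.0420 to 0.0771 in control retinas of day 7 (log2 difference -1.02). Tmem119, with ratios of 0.134 to 0.278 in laser and 0.355 to 0.494 in control retinas, and Olfml3, with 0.231 to 0.324 in laser and 0.446 to 0.511 in control retinas, also had lower ratios in every laser library of day 7. In all, 8 of 9 ratios of day 3 and 7 of 8 of day 7 were lower on average, Aif1 being the exception on both days. A lower ratio to Csf1r in every laser library was counted over 16083 genes on day 3 and 15191 on day 7. The share of these genes with a lower average ratio to Csf1r was not counted. It cannot be under the 85.5% (day 3) and 78.1% (day 7) that were lower in every laser library. The counts of 8 and 7 therefore do not set these genes apart from the retina as a whole. Each ratio whose groups were apart had an exact 2-sided permutation p of 0.1, the smallest that 3 against 3 libraries allow, and 0.283 after adjustment over 17 ratios. Such separation was common, since 85.5% of the genes counted on day 3 and 78.1% of those on day 7 had a lower ratio to Csf1r in every laser library. Here it was seen for 2 of 9 ratios on day 3 and 4 of 8 on day 7, smaller shares than over all the genes counted. Why these shares are smaller was not tested, and a difference of any of these genes from Csf1r was not shown.

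**Figure D3:**
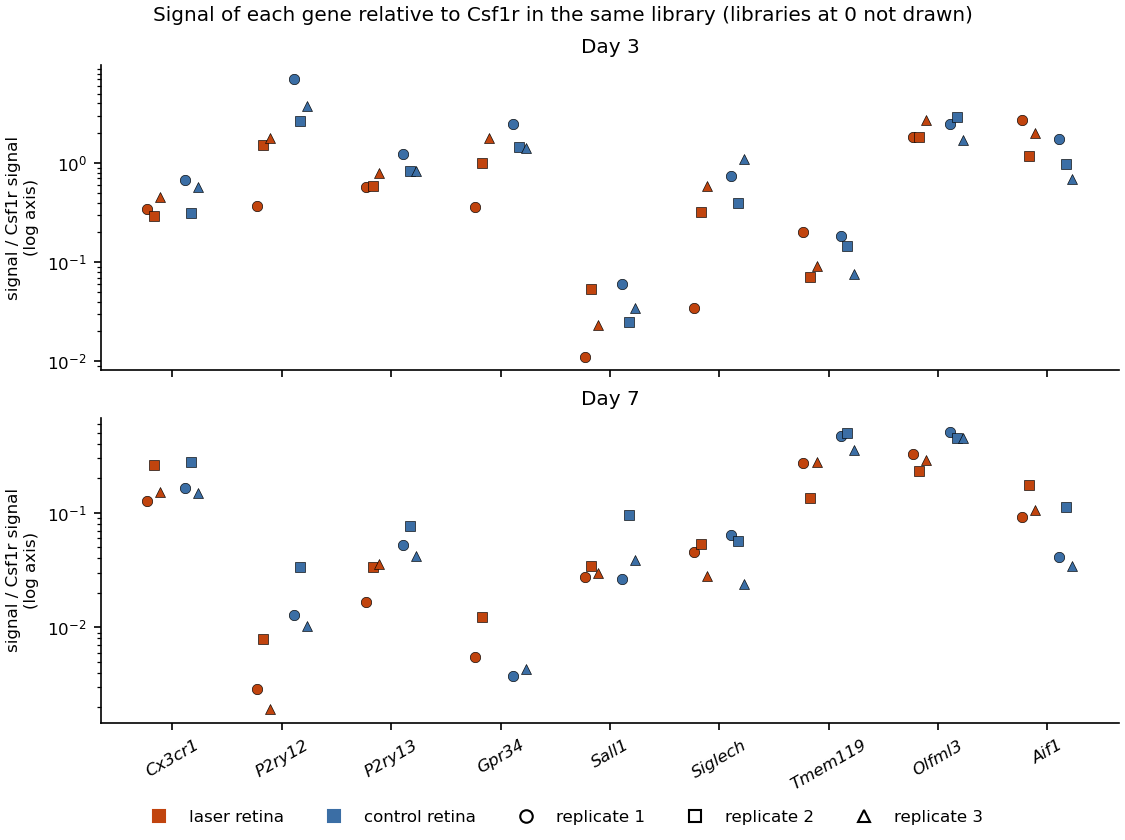
Signal of each gene divided by that of Csf1r in the same library (log axis), in laser (red, left) and control (blue, right) libraries of day 3 (upper panel) and day 7 (lower panel), 3 libraries per group with a symbol for each replicate number. P2ry12 and P2ry13 have separate groups with laser lower in both panels, and Aif1 lies higher on average in laser libraries.

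The ratio between the neighbouring receptors was chosen after their values were seen and is given as a description. Its exact 2-sided permutation p was 0.1 on each day, the smallest that 3 against 3 libraries allow, and is no support. The signal of P2ry12 divided by that of P2ry13 was 0.640, 2.59 and 2.25 in laser retinas and 5.75, 3.19 and 4.55 in control retinas of day 3. All laser ratios were lower, with a log2 difference of -1.49, or -0.86 without laser replicate 1. Of 16083 genes counted on day 3, 67.8% had a lower ratio to P2ry13 in every laser library. On day 7 the ratios were 0.174, 0.232 and 0.0538 in laser and 0.246, 0.434 and 0.246 in control retinas. Of 15192 genes counted on day 7, 0.849% had a lower ratio to P2ry13 in every laser library. P2ry12 and P2ry13 lay under the filter on that day. This share therefore covers genes of higher mean signal and is not a like comparison. The log2 difference of day 7 was -1.20, or -0.57 without laser replicate 3, and rests on 2 to 6 reads of P2ry12 per laser library and 3 to 11 per control library.

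The order of the 10 genes by level per exon length differed between the tables of the 2 days, which were normalized separately. In control retinas of day 3 the highest was P2ry12 at a mean signal of 8.02, followed by Olfml3 at 4.53 and Gpr34 at 3.26, then Aif1, Csf1r, P2ry13, Siglech and Cx3cr1 between 2.04 and 0.967, Tmem119 at 0.250 and Sall1 at 0.0719. The ranges of P2ry12 and Olfml3 overlapped, and so did those of each neighbouring pair from Aif1 to Cx3cr1. In control retinas of day 7 the highest was Csf1r at 13.5, followed by Olfml3 at 6.34 and Tmem119 at 5.89, which overlapped, Cx3cr1 at 2.64, then Aif1, P2ry13, Sall1 and Siglech between 0.817 and 0.647, P2ry12 at 0.248 and Gpr34 at 0.0374. The ranges of each neighbouring pair from Aif1 to P2ry12 overlapped, and those of P2ry12 and Gpr34 did not.

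P2ry12 and Gpr34, with GC contents of 38.6% and 37.1%, had control levels lower on day 7 than on day 3 by log2(signal + 1) values of -2.85 and -2.04. Tmem119 and Csf1r, with 59.1% and 54.5%, had values of 2.46 and 2.31. The other genes, with GC contents of 44.7% to 52.4%, lay between -0.74 and 0.89. Over all genes the median of the same difference was -1.70 for a GC content under 40%, 0.0013 between 45% and 50%, 1.06 between 50% and 55%, and 2.09 between 55% and 60%. Aif1, with a GC content of 51.4%, did not follow these medians and had a value of -0.74. What made the tables differ was not tested, and since they were normalized separately these values are no measure of a change between the days. With GC trends removed within each day, an alternative chosen after seeing the data, Csf1r remained called on day 7 (1.25, adjusted p = 0.0214, in a range of 0.0141 to 0.366 over its alternatives).

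**Figure D4:**
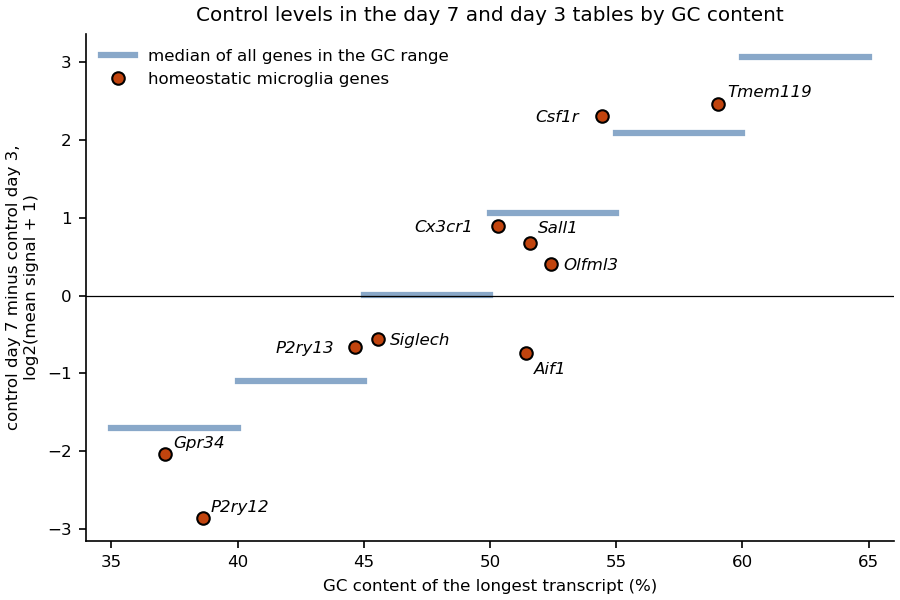
Difference in control level between day 7 and day 3, as log2(mean signal + 1) of 3 libraries per day, against the GC content of the longest transcript for the 10 genes (red points), with the median of all genes in each GC range (blue bars). P2ry12 and Gpr34 lie lowest at the left and Tmem119 and Csf1r highest at the right, while Aif1 lies at -0.74 where the bar is at 1.06.

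Other genes of the same cells and pathways were read from 12 lists. Of 18 other microglia-enriched genes, 13 were tested on each day and 1 was called higher on each, the Fc receptor-like gene Fcrls. Fcrls had signals of 19.5, 6.55 and 9.61 in laser and 0.585, 0.733 and 0.254 in control retinas of day 3 (difference 2.97, SE 0.36, adjusted p = 0.0450). On day 7 it had 12.3, 9.42 and 12.6 in laser and 1.54, 1.32 and 1.83 in control retinas (2.27, SE 0.22, adjusted p = 0.0189). Every laser value exceeded every control value on both days. The call of day 3 was lost with no filter, with median-of-ratios rescaling, quantile normalization, voom, the replicate block, the factor undone or GC trends removed. The same call was lost without laser replicate 3 or any 1 control library. That of day 7 was lost with no filter and without any 1 library other than laser replicate 2. The median difference of this list was 0.63 on day 3 and 0.57 on day 7. Of 10 nucleotide receptors and ectoenzymes, 6 were tested on day 3 and 5 on day 7, and 0 were called. P2ry6, the UDP receptor linked to microglial phagocytosis, had 8.97, 2.10 and 3.36 in laser and 0.421, 0.523 and 0.929 in control retinas of day 3 (difference 1.67, adjusted p = 0.0977).

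Ligands and upstream regulators of the receptors did not pass the test. Of 6 ligands and signals, including Csf1, Il34 and Cx3cl1, 5 were tested on day 3 and 6 on day 7, and 0 were called. Cx3cl1, the ligand of Cx3cr1, had signals of 10.1, 7.37 and 4.98 in laser and 2.78, 4.22 and 3.67 in control retinas of day 3 (difference 0.86, adjusted p = 0.121). Csf1, a ligand of Csf1r, had 7.71, 7.37 and 8.00 in laser and 4.22, 4.68 and 3.29 in control retinas of day 7 (difference 0.79, adjusted p = 0.558). In both cases the groups did not overlap. Of 13 microglial transcription factors and TGF-beta receptors, 7 were tested on day 3 and 11 on day 7, and 0 were called. Spi1, which encodes PU.1, had 3.32, 2.76 and 3.87 in laser and 0.874, 0.795 and 1.03 in control retinas of day 7 (difference 1.18, adjusted p = 0.231).

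Genes shared by microglia and other myeloid cells were read beside them. Of 14 pan-myeloid genes, 13 were tested on day 3 and 12 on day 7, with medians of 2.27 and 1.73, and 2 were called higher on day 3 and 6 on day 7. On day 3 these were Ly86 (1.78) and the complement gene C1qb (2.82), both with an adjusted p of 0.0278. The 4 with the smallest p on day 7 were C1qb (1.98, adjusted p = 0.00444), the signalling adaptor Tyrobp (1.73, adjusted p = 0.0202), C1qa (1.90, adjusted p = 0.0202) and C1qc (1.90, adjusted p = 0.0230). Without laser replicate 1 the count of day 3 was 12, and without any 1 of control replicates 1, 2 and 3 or laser replicate 3 it was 0. It was also 0 with no filter, with the replicate block and with GC trends removed, 7 with library weights and 12 in the joint fit. The count of day 7 was 5 without laser replicate 2 and 0 to 1 without any other library, and it was 2 with no filter, 3 with median-of-ratios rescaling, 1 with voom and 2 in the joint fit. Of 17 disease-associated microglia genes, 15 were tested on day 3 (median 1.48) and 0 called, or 8 without laser replicate 1. On day 7, 13 were tested (median 0.93) and 1 was called, the lysosomal gene Cd68 (1.62, adjusted p = 0.0202), or 4 with the replicate number as a block and 0 with quantile normalization, with voom and without any 1 library other than laser replicate 2.

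Markers of other cells that could carry Csf1r, Cx3cr1 or Aif1 were read in the same libraries. On day 3, 8 of 10 monocyte markers were tested and 0 called, or 1 without laser replicate 1, and laser values of Ccr2, which defines inflammatory monocytes, were 8.32, 0.111 and 0.313 while all control libraries were at 0. On day 7, Ccr2 was at 0 in 2 laser libraries and at 0.0454 in the other, and at 0 in all control libraries, and Chil3 and Clec4e were at 0 in all 6 libraries. The monocyte sum of day 7 was 70.6 to 105 in laser and 3.72 to 8.18 in control retinas and was mostly Lyz2, the 1 gene of the list tested and called (difference 3.92, adjusted p = 0.00444), which microglia can also express. That call was lost in the joint fit and without laser replicate 3 or control replicate 3. The part of these cells in the values of Csf1r, Cx3cr1 and Aif1 was not tested. Of 10 border-associated macrophage markers 4 were tested on day 3 and 2 on day 7, and of 9 neutrophil markers 5 and 1, with 0 called, except 1 border-associated gene on day 3 without laser replicate 1. Lymphocyte markers (9 genes, sums of 1.11 to 10.5 in laser and 0.670 to 1.25 in control retinas of day 3) lay under the filter. Of 10 cell cycle genes 1 was tested on day 3 and 2 on day 7, and 0 were called.

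**Figure D5:**
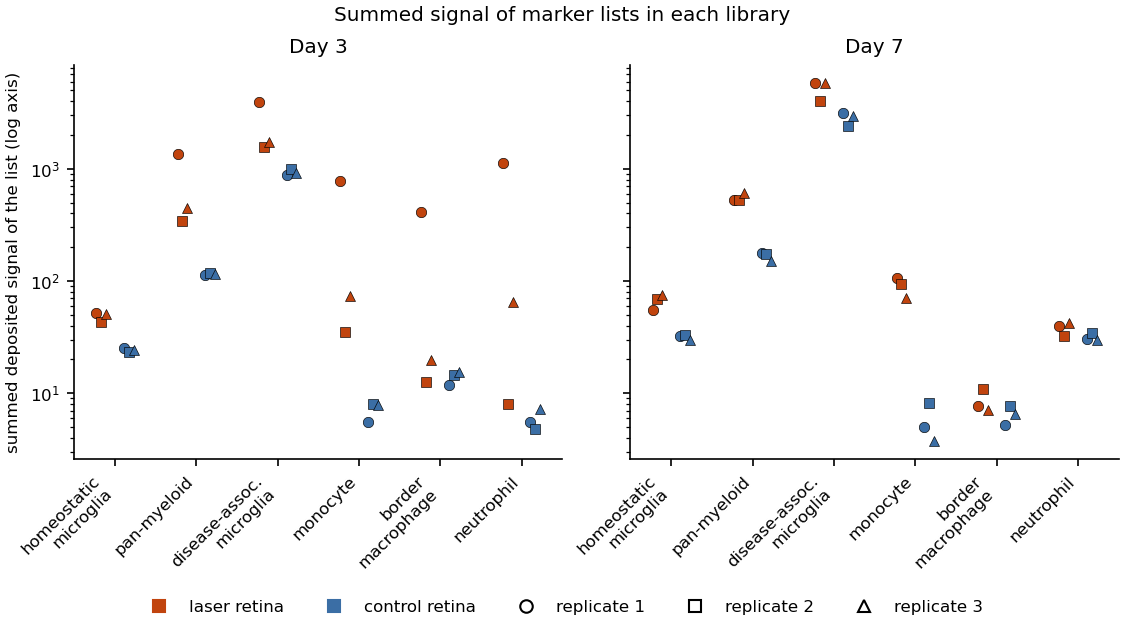
Summed signal (log axis) of the 10 homeostatic microglia genes and of 5 marker lists in every laser (red, left) and control (blue, right) library of day 3 (left panel) and day 7 (right panel), with a symbol for each replicate number. The homeostatic sum lies at 43.5 to 51.7 in laser and 23.4 to 25.2 in control libraries of day 3. On day 7 it lies at 55.6 to 75.8 in laser and at most 32.7 in control libraries. Csf1r alone gives 29.1 to 39.4 of the laser sums and 12.6 to 14.2 of the control sums of day 7. Laser replicate 1 of day 3 stands high in the monocyte, border macrophage and neutrophil sums, with Pf4 giving 376 of its border macrophage sum.

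Correlations between the 10 genes had both signs within each day. Within day 3, Csf1r and P2ry13 had a Pearson correlation of log2(signal + 1) of 0.96 over 6 libraries, and Csf1r and Aif1 of 0.91. P2ry12 had values of -0.59 with Csf1r and 0.77 with Siglech. Both P2ry12 (2.54) and Siglech (0.237, from 4 reads) were lowest in laser replicate 1, so that library alone can weigh heavily on these values. Within day 7, Csf1r correlated with Aif1 at 0.91 and with Olfml3 at 0.91. P2ry12 correlated with Csf1r at -0.45, from 2 to 6 reads of P2ry12 in laser and 3 to 11 in control libraries. These 6 libraries share the laser and control groups, so the values describe group differences and spread together. Other genes were ranked, over all 12 libraries centred within each day, by likeness to the mean of the 5 of these genes tested on both days. These were Csf1r, Cx3cr1, Aif1, Olfml3 and Siglech, the first 3 of which monocytes and macrophages also express. P2ry12, P2ry13, Tmem119, Sall1 and Gpr34 had no part in that mean. The 4 most alike among 10721 genes ranked were Adgre1 (r = 0.97), Mknk1 (0.96), C4b (0.96) and Slamf9 (0.96). Adgre1 encodes the macrophage marker F4/80.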

How the data were processed

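PolyA RNA of 12 mouse retina libraries was sequenced, and groups and replicate numbers were read from the sample titles. RNA was extracted from retina samples and libraries were made with a directional kit, per the labels' protocols. The submitters' processing notes list mm10 as the build and STAR 2.7.0 and edgeR 3.28.0 as tools, with no step attached to either. How reads were counted, and on which annotation, is not given there. For each day the authors deposited 1 table of signal values, which they named TPM. Columns summed to 953049 to 1045986 and not to 1 fixed total, so the signal was treated as normalized within each table, and differences in level between the tables are given as a description only.

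Values multiplied by GENCODE M21 union exon lengths and divided by a step per library gave whole reads once a factor cycling with row position (0.955 to 1.05) was removed. Between 98.9% and 99.2% of values under 20 reads were whole within 0.05. The factor moved group means by at most 0.052 on the log2 scale, and the deposited values were kept. Exon lengths and GC contents came from M21, whose coordinates matched those deposited for 53681 of 54367 genes. Intervals and floors on reads (3 reads) cover counting error only.

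Laser and control retinas were compared within each day with limma 3.58.1 in R 4.3.3 on log2(signal + 1) with a trended prior variance, keeping genes whose mean signal reached 1, with Benjamini-Hochberg adjustment over all genes tested. Fold changes on this scale understate those of low genes. Effects of the 2 days were compared as an interaction over 12 libraries. Ratios to Csf1r, and that of P2ry12 to P2ry13, were tested by exact permutation. The code was tested on simulated data. The 10 genes and 12 lists (132 genes) were chosen with earlier results of these data known. From each list, genes called on a day are named, up to 4 by smallest p, and otherwise up to 2 with the smallest p. Genes called similar are the 5 best correlated, of which 1 is not reported here.

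The design makes the left eye the control of the right eye of a mouse, and the labels do not say that a shared number is a shared mouse. Deviations of same-numbered libraries from their group means correlated at 0.48, 0.56 and 0.13 on day 7. All were over 0.1, the limit set for reading the numbers as pairs. However, laser replicate 3 of day 7 correlated more with control replicate 1 (0.20) than with its own number, so a pairing of day 7 remains uncertain. On day 3 same-numbered libraries correlated at 0.041, 0.016 and 0.077, under that limit, though each library correlated best with its own number. The main fits of both days used no pairing, and the replicate block is given as an alternative. Alternatives were other pseudocounts, no filter, other normalizations, library weights, the replicate block, voom on the recovered reads, the factor undone, GC trends removed, a joint fit and leaving out each library. Promoter windows are from RefSeq on GRCm38.p6.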

Additional observations from a re-analysis of the deposited data

How the results depend on the processing

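The call of Csf1r on day 7 was the only one among the 10 genes, and it was lost, leaving 0 genes called, with no filter, with median-of-ratios rescaling, with quantile normalization, with voom on the recovered reads and without any 1 library (0 to 0). On day 3, where none of the 10 was called, library weights and a joint fit of all libraries each called 3 (Aif1, Csf1r and Olfml3), and leaving out 1 library gave 0 to 1. Over all genes, the 25 calls of day 3 became 0 with no filter, 14 with median-of-ratios rescaling, 12 with quantile normalization, 369 with library weights, 13 with voom, 1 with GC trends removed, 1016 in the joint fit and 0 to 294 without 1 library. The replicate block gave 0 on day 3, alone and with GC trends removed, so Fcrls, Ly86 and C1qb were not called there, and each library of day 3 correlated best with its own number. The 38 calls of day 7 became 13 with no filter, 24 with median-of-ratios rescaling, 114 with library weights, 18 with voom, 74 with GC trends removed, 22 in the joint fit and 0 to 41 without 1 library. The block, with 53 calls on day 7, kept Csf1r (adjusted p = 0.0324, range 0.0141 to 0.366) and changed no other call among the 10. The interaction, with 0 calls, had 2 with a pseudocount of 0.1, 28 with no filter, 1119 with library weights and 0 to 3 without 1 library. Median-of-ratios rescaling moved the median of all genes on day 3 to -0.024, against 0.16. The causes were not tested.

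Of the values that changed sign, Siglech on day 3 was 0.33 with library weights, 0.016 with the factor undone and -0.34 to 0.44 without 1 library, and P2ry12 on day 3 was -0.64 to 0.065 without 1 library, positive without laser replicate 1. In the interaction, a pseudocount of 0.1 gave -0.033 for P2ry12, 0.28 for Gpr34, -0.17 for Csf1r and 0.019 for Aif1, and one of 0.5 gave -0.023 for Csf1r. Library weights gave -0.035 for P2ry12, 0.70 for Tmem119 and 0.16 for Aif1. Voom gave -0.39 for P2ry12, 0.54 for Gpr34, -0.25 for Csf1r and 0.16 for Aif1. GC trends removed, with or without the replicate block, gave 0.26 for Tmem119. Without 1 library the interaction was -0.19 to 0.52 for P2ry12, -0.35 to 0.17 for Tmem119 (0.15 without laser replicate 1 of day 3), -0.69 to 0.016 for Aif1, -0.67 to 0.031 for Gpr34 and -0.022 to 0.24 for Csf1r. None of these values passed the test. Counting error limits Sall1 and Tmem119 on day 3 and P2ry12 and Gpr34 on day 7, which rested on at most 16 reads per library, on day 7 in the more deeply sequenced libraries.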
